A study of Homo sapiens with 35 samples.

Results

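The comparison described here sets H9 human embryonic stem cells after 48 h in BA medium against the same line after 24 h in BA, with 3 libraries in each group, 6 of the 35 libraries of the study. Members were chosen by the labels alone, as the libraries named BA at 48 h and BA at 24 h, and same-numbered replicates were paired. BA is E6 medium to which BMP4 (40 ng/mL) and Activin A (40 ng/mL) were added, and H9 is an established human embryonic stem cell line. Both groups were seeded as single cells from cultures kept in E8 medium on Matrigel, and poly(A) RNA was sequenced. The other libraries, taken at seeding (t0) and in E6 (the control for spontaneous differentiation) and E8 (the pluripotency control), are used for context. The comparison asks which genes separate the first day of mesendoderm induction from the second. No group without BMP4 and Activin A was replicated at 24 h, so time in culture and time with the factors cannot be told apart in the replicated groups.

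BMP4 and Activin A are ligands of the TGF-beta family. BMP4 signals through SMAD1, SMAD5 and SMAD9 and Activin A through SMAD2 and SMAD3, and together they move pluripotent cells into a state like the primitive streak, from which mesoderm and definitive endoderm arise. In the embryo the streak is marked by the T-box factors TBXT and EOMES, nascent mesoderm by MESP1 and TBX6, and definitive endoderm by SOX17 and FOXA2, while E-cadherin (CDH1) is lost as cells leave the epithelium.

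The 6 libraries held 16390111 to 33039154 counts, within the range of 11793453 to 37191969 over all 35. In these 6 libraries the largest axis of variation was not time. The first principal component of the 1000 most variable genes held 78.8% of the variance and parted replicate 1 from replicates 2 and 3 in both groups, and the second held 12.7% and parted 48 h from 24 h. Across genes, the log2 levels of replicates 2 and 3 correlated at r = 0.993 at 48 h and 0.993 at 24 h, and those of replicate 1 with either at 0.893 and 0.900 at 48 h and 0.923 and 0.927 at 24 h. These correlations run across genes, which are not replicates, and they serve as a description. Values are given per library, always in the order of replicates 1, 2 and 3. The labels do not say whether the replicates were separate cultures, so p-values measure the spread between these libraries. In bulk RNA, fewer cells of a type and less RNA per cell cannot be told apart.

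Between 24 and 48 h in BA, genes of nascent mesoderm, endoderm, amnion, matrix and keratin filaments were among those that rose, and a smaller number of genes fell, among them the WNT inhibitors SFRP1 and SFRP2 and the ERK phosphatase DUSP6. Of 21554 genes tested, 2158 differed, a share of 10%. These were 1362 genes higher at 48 h (6.32%), 799 of them by at least 2-fold, and 796 lower (3.69%), 296 of them by at least 2-fold. The median log2 change over all tested genes was 0.01. Of the called genes, 95.9% moved in the direction of the call in all 3 pairs, which the test on these same pairs largely fixes. Over all tested genes, 45.7% moved 1 way in all 3 pairs. The test was the edgeR quasi-likelihood F-test with replicate number as a block, at an adjusted p below 0.05. Without the block it called 98 genes, and leaving out 1 of the 6 libraries gave 493 without replicate 2 of BA 24 h, 546 without its replicate 3, 1124 without replicate 2 of BA 48 h, 1137 without its replicate 3, and 2456 and 2473 without replicate 1 of BA 24 h and of BA 48 h. Leaving out a replicate number in all 5 groups gave 8122 genes without replicate 1, 4 without replicate 2 and 7 without replicate 3. In all, 415 genes (19.2% of the called) were called without any 1 of the 6 libraries.

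The first genes described are those whose smallest rise among the 3 pairs was largest. TNC, the matrix glycoprotein tenascin C (chromosome 9, 115019578 to 115118257 on GRCh38), stood at 626, 233 and 249 CPM at 48 h, against 35.2, 11.5 and 17.9 CPM at 24 h. The groups did not overlap, and the log2 change was 4.12 ± 0.36 (SE, adjusted p = 0.00015), a 17.4-fold rise. ATP12A, a subunit of the non-gastric proton and potassium pump (chromosome 13, 24680411 to 24712493), reached 130, 41.8 and 39.6 CPM at 48 h, against 7.19, 2.60 and 2.42 CPM at 24 h. Its log2 change was 4.16 ± 0.74 (adjusted p = 0.00694), and in E6 at 48 h it averaged 3.92 ± 2.16 CPM (SD, n = 3). BMP4, the gene of the ligand that was also added to the medium (chromosome 14, 53949736 to 53958761), was at 216, 57.9 and 63.2 CPM at 48 h, against 14.99, 5.12 and 7.19 CPM at 24 h. The lowest 48 h library was thus above the highest 24 h library, with a log2 change of 3.58 ± 0.43 (adjusted p = 0.000884). In E6 at 48 h BMP4 averaged 5.65 ± 0.479 CPM. AHNAK, a large scaffold protein (chromosome 11, 62433542 to 62556235), stood at 392, 372 and 455 CPM at 48 h, against 32.6, 16.3 and 25.6 CPM at 24 h. Its mean was 406 ± 43.4 CPM at 48 h (SD, n = 3), against 24.8 ± 8.17 CPM at 24 h. ALPK2, an alpha-kinase (chromosome 18, 58481247 to 58628957), was at 128, 8.98 and 11.8 CPM at 48 h, against 1.60, 0.220 and 0.891 CPM at 24 h. DIO3, the deiodinase that inactivates thyroid hormone (chromosome 14, 101561351 to 101563452), was at 51.4, 8.25 and 8.42 CPM at 48 h, against 3.36, 0.157 and 0.127 CPM at 24 h. Of these 6 genes, AHNAK lost its call when any 1 of the libraries other than replicate 1 of BA 24 h was left out (adjusted p up to 0.138), and DIO3 without replicate 2 or 3 of BA 24 h (up to 0.0561).

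**Figure D1:**
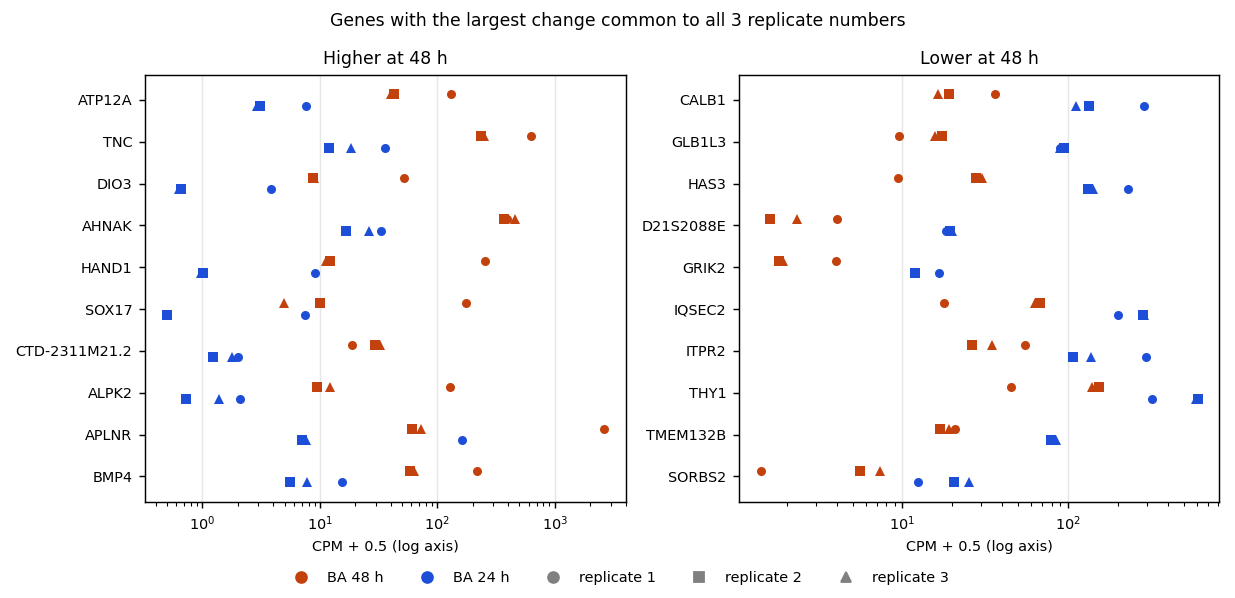
Level in each library of the 10 called genes whose smallest rise among the 3 pairs was largest (left) and the 10 whose smallest fall was largest (right), as CPM plus 0.5 on a log axis. Colour marks BA 48 h and BA 24 h and the symbol marks the replicate; TNC stands at 233 CPM or more in the 48 h libraries and at 35.2 CPM or less in the 24 h libraries.

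The genes described next are those whose smallest fall among the 3 pairs was largest. CALB1, the calcium-binding protein calbindin (chromosome 8, 90058608 to 90095475), stood at 35.8, 18.6 and 15.8 CPM at 48 h, against 287, 133 and 111 CPM at 24 h. Its 3 pair changes were close to one another, at -2.98, -2.80 and -2.77 on the log2 scale, and the fitted change was -2.84 ± 0.36 (adjusted p = 0.00111). ITPR2, an IP3 receptor that releases calcium from the endoplasmic reticulum (chromosome 12, 26336515 to 26833198), was at 54.6, 25.9 and 34.0 CPM at 48 h, against 297, 106 and 138 CPM at 24 h (log2 change -2.12 ± 0.18, adjusted p = 0.00015). THY1, the surface glycoprotein CD90 (chromosome 11, 119417378 to 119424985), was at 44.4, 152 and 139 CPM at 48 h, against 322, 605 and 595 CPM at 24 h. It had averaged 522 ± 167 CPM at t0 and was at 114 ± 23.6 CPM in E6 at 48 h, within the range of the 3 BA libraries at 48 h. IQSEC2, an exchange factor for ARF GTPases (chromosome X, 53225828 to 53321350), differed from THY1 in its history. It stood at 17.2, 67.2 and 62.7 CPM at 48 h, against 199, 284 and 287 CPM at 24 h, and had averaged 63.6 ± 5.70 CPM at t0. SORBS2, an adaptor of the actin cytoskeleton (chromosome 4, 185585444 to 185956652), was at 0.894, 5.01 and 6.86 CPM at 48 h, against 11.9, 19.96 and 24.7 CPM at 24 h and a mean of 136 ± 8.95 CPM at t0. TMEM132B, GRIK2 (a kainate receptor subunit) and GLB1L3 fell as well, by 2.14, 2.75 and 2.63 on the log2 scale. HAS3, a hyaluronan synthase, stood at 8.94, 27.3 and 29.8 CPM at 48 h, against 229, 132 and 141 CPM at 24 h. Its call was lost without replicate 2 or 3 of BA 24 h or replicate 2 of BA 48 h (adjusted p up to 0.0875), while those of the other genes of this paragraph held without any 1 of the 6 libraries.

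Markers of nascent and paraxial mesoderm were called in 1 direction. Of 18 tested members of that list 9 rose and 0 fell, with a median log2 change of 2.22, where 6.32% of all genes rose. MESP1, the factor of earliest mesoderm (chromosome 15, 89748661 to 89751310), stood at 42.1, 4.87 and 3.65 CPM at 48 h, against 1.24, 0.0314 and 0.159 CPM at 24 h (log2 change 5.05 ± 0.92, adjusted p = 0.00779). The direction was shared by the 3 pairs, while the level in replicate 1 was far above that in replicates 2 and 3. TBX6, of presomitic mesoderm (chromosome 16, 30085793 to 30091887), was at 18.1, 9.60 and 7.59 CPM at 48 h, against 1.19, 3.17 and 2.99 CPM at 24 h. DLL3, a divergent Notch ligand of the presomitic mesoderm (chromosome 19, 39498895 to 39508481), was at 85.1, 10.4 and 7.43 CPM at 48 h, against 0.310, 1.41 and 0.732 CPM at 24 h. Its change was larger in replicate 1 than in replicates 2 and 3, by 5.08 on the log2 scale. APLNR, the apelin receptor of early mesoderm (chromosome 11, 57233577 to 57237314), was at 2614, 60.7 and 72.7 CPM at 48 h, against 162, 6.56 and 7.10 CPM at 24 h. The groups overlapped since replicate 1 at 24 h was above replicates 2 and 3 at 48 h, yet the 3 pair changes were 4.01, 3.11 and 3.27. MESP2, DLL1, SNAI2, WNT5A and HES7 also rose, the last at under 1 CPM in all 6 libraries. PDGFRA, the receptor that marks paraxial mesoderm, was not called (adjusted p = 0.0597), at 108, 2.89 and 2.89 CPM at 48 h, against 1.19, 1.22 and 2.005 CPM at 24 h. The calls of MESP2 and TBX6 were lost when any 1 of the 3 libraries of BA 24 h was left out (adjusted p up to 0.103), that of SNAI2 without these or replicate 1 of BA 48 h (up to 0.200), that of WNT5A without replicate 2 or 3 of BA 24 h (up to 0.0566), and that of HES7 without those or replicate 2 of BA 48 h (up to 0.218) and in DESeq2 (0.0558).

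In the list of cardiac, lateral and extraembryonic mesoderm 4 of 16 tested genes rose (HAND1, BMP4, GATA4 and ISL1) and 1 fell (TBX5), where 6.32% of all genes rose and 3.69% fell. The median fitted log2 change was 0.43, and the medians of the 3 pair changes were 1.03, 0.17 and -0.019. HAND1, a basic helix-loop-helix factor of lateral and extraembryonic mesoderm and of trophoblast (chromosome 5, 154474972 to 154478264), stood at 255, 11.8 and 10.7 CPM at 48 h, against 8.63, 0.502 and 0.477 CPM at 24 h. The log2 change was 4.65 ± 0.56 (adjusted p = 0.0018), and the gene had 0 counts in the 3 t0 libraries and averaged 0.266 ± 0.107 CPM in E6 at 48 h. GATA4, a zinc finger factor of endoderm and heart, was at 125, 1.74 and 1.75 CPM at 48 h, against 1.03, 0.157 and 0.0955 CPM at 24 h. ISL1, a LIM homeobox factor, was at 54.7, 0.661 and 1.05 CPM at 48 h, against 6.98, 0.157 and 0.127 CPM at 24 h. TBX5, the T-box factor of the heart, was lower, at 1.60, 0.139 and 0.254 CPM at 48 h, against 12.0, 0.785 and 0.541 CPM at 24 h, though its call was lost without replicate 1 or 2 of BA 48 h or replicate 2 or 3 of BA 24 h (adjusted p up to 0.257). In DESeq2, ISL1 (adjusted p = 0.0792) and TBX5 (0.0638) were not called. The call of GATA4 was lost without replicate 1 or 3 of BA 24 h (up to 0.0614) and that of ISL1 without replicate 1 of BA 48 h (0.0547).

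The promoter of HAND1 is shown as an example that holds a motif match, so the match is no result about the called genes. HAND1 rose in all 3 pairs, as did 1280 of the 1362 genes called higher, and it has a single start. The 250 bases before that start in RefSeq (GRCh38.p14, chr5:154478228-154478477, minus strand, 5′ to 3′) hold 1 match to the TCF and LEF motif CTTTGAT, read here on the other strand and printed in capitals, which begins at position -46 from the start.
HAND1 promoter: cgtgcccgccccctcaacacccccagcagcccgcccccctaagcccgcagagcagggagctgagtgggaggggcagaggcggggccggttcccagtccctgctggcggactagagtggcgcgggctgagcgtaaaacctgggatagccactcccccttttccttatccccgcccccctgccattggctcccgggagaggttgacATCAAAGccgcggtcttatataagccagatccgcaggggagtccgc
Searched on both strands in 35116 RefSeq promoters, each 250 bases before to 50 bases after a start, this motif was found in 1.93% of the promoters of genes higher at 48 h, 1.09% of those of genes lower at 48 h and 1.62% of those of all tested genes. The T-box motif AGGTGTGA, the GATA motif AGATAA and the SNAIL E-box CAGGTG were found in 0.742%, 6.68% and 18.6% of promoters of the higher genes, 1.21%, 6.76% and 19.3% of those of the lower genes, and 0.803%, 6.37% and 19.4% of those of all tested genes. The SMAD palindrome GTCTAGAC was in 0 of 1347 promoters of the higher genes, 2 of 829 of the lower genes and 28 of 17440 of all tested genes. A gene can have several promoters in the table, and the shares are descriptions with no test.

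Of 18 tested definitive endoderm genes 5 rose and 0 fell, where 6.32% of all genes rose. The median fitted log2 change was 2.17, but the medians of the pair changes were 3.45 in replicate 1, 0.42 in replicate 2 and 0.49 in replicate 3. They were SOX17, GATA4, GATA6, KIT and LHX1. SOX17, the endoderm factor (chromosome 8, 54457935 to 54460888), stood at 175, 9.54 and 4.48 CPM at 48 h, against 7.03, 0 and 0 CPM at 24 h. All 3 pairs rose, by 4.54, 4.33 and 3.32 on the log2 scale after adding 0.5 CPM, and the call (adjusted p = 0.000443) held without any 1 of the 6 libraries but not in DESeq2 (0.0585). GATA6, which acts in endoderm and mesoderm (chromosome 18, 22169443 to 22202528), was at 404, 7.10 and 5.88 CPM at 48 h, against 36.6, 0.847 and 0.764 CPM at 24 h (log2 change 3.24 ± 0.27, adjusted p = 0.000143). GATA4, described above, lies on chromosome 8 (11676959 to 11760002). KIT, a receptor tyrosine kinase of definitive endoderm, was at 55.8, 26.6 and 31.3 CPM at 48 h, against 12.1, 17.9 and 18.1 CPM at 24 h. The 48 h libraries lay above the 24 h libraries, but the call was lost when any 1 of the libraries of BA 24 h was left out (adjusted p up to 0.0608). FOXA2, the pioneer factor of endoderm, was not called (adjusted p = 0.067), at 8.69, 0.0696 and 0.0635 CPM at 48 h, against 0.0517, 0.0314 and 0.0318 CPM at 24 h. Only replicate 1 at 48 h held it above 1 CPM among these 6 libraries. CXCR4, the chemokine receptor used to sort endoderm, stood at 16.7, 5.25 and 5.02 CPM at 48 h, against 0.879, 2.64 and 2.42 CPM at 24 h (adjusted p = 0.0708). CER1, the secreted inhibitor of Nodal, BMP and WNT, stood at 2653, 31.6 and 36.0 CPM at 48 h, against 28.0, 9.32 and 11.6 CPM at 24 h (adjusted p = 0.0581, with a change larger by 4.93 on the log2 scale in replicate 1).

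Over all tested genes, 6.32% rose and 3.69% fell. Primitive streak genes gave a mixed picture, with 6 of 20 tested genes higher, 1 lower and a median log2 change of 1.11. The genes that rose were GSC, LHX1, EVX1, FGF17, GATA6 and MESP1, and the gene that fell was LEFTY2, the Nodal inhibitor. EVX1 was not called in DESeq2 (adjusted p = 0.425) or limma-voom (0.114). GSC, the organizer homeobox gene (chromosome 14, 94768216 to 94770230), was at 21.5, 1.11 and 1.11 CPM at 48 h, against 2.07, 0.157 and 0.0636 CPM at 24 h. LHX1, a LIM homeobox gene of the node and anterior mesendoderm (chromosome 17, 36936785 to 36944612), was at 454, 3.51 and 4.16 CPM at 48 h, against 9.00, 0.345 and 0.636 CPM at 24 h. FGF17, a fibroblast growth factor of the streak (chromosome 8, 22042398 to 22048809), was at 26.4, 3.65 and 3.81 CPM at 48 h, against 0.465, 0.126 and 0.0636 CPM at 24 h, and it was also called without the block (adjusted p = 0.0255). LEFTY2 stood at 4.66, 5.67 and 4.89 CPM at 48 h, against 8.94, 49.7 and 41.8 CPM at 24 h. The 3 defining streak factors were not called in the main test. In the edgeR fit without replicate 1, whose spread rests on replicates 2 and 3, TBXT and MIXL1 were called and EOMES was not. Their log2 changes there were 2.03 (adjusted p = 3.39e-05), 1.47 (6.91e-06) and 0.13 (0.598). TBXT was at 88.8, 28.7 and 24.4 CPM at 48 h, against 94.1, 5.77 and 7.51 CPM at 24 h (adjusted p = 0.218), so that the pair changes were -0.08, 2.22 and 1.64. EOMES was at 992, 45.3 and 46.6 CPM at 48 h, against 436, 40.4 and 44.6 CPM at 24 h (adjusted p = 0.355). MIXL1 was at 683, 34.2 and 39.2 CPM at 48 h, against 400, 12.5 and 14.3 CPM at 24 h (adjusted p = 0.228). NODAL was at 2.17, 15.6 and 15.5 CPM at 48 h, against 25.9, 25.6 and 24.1 CPM at 24 h (adjusted p = 0.0832), with 48 h below 24 h in the 3 pairs. The calls of GSC (adjusted p up to 0.0533), EVX1 (0.181), LEFTY2 (0.187) and LHX1 (0.0720) were lost without replicate 2 or 3 of BA 24 h, those of EVX1 and LEFTY2 also without replicate 2 or 3 of BA 48 h, that of LEFTY2 without replicate 1 of BA 48 h, and that of LHX1 without replicate 1 of BA 24 h.

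**Figure D2:**
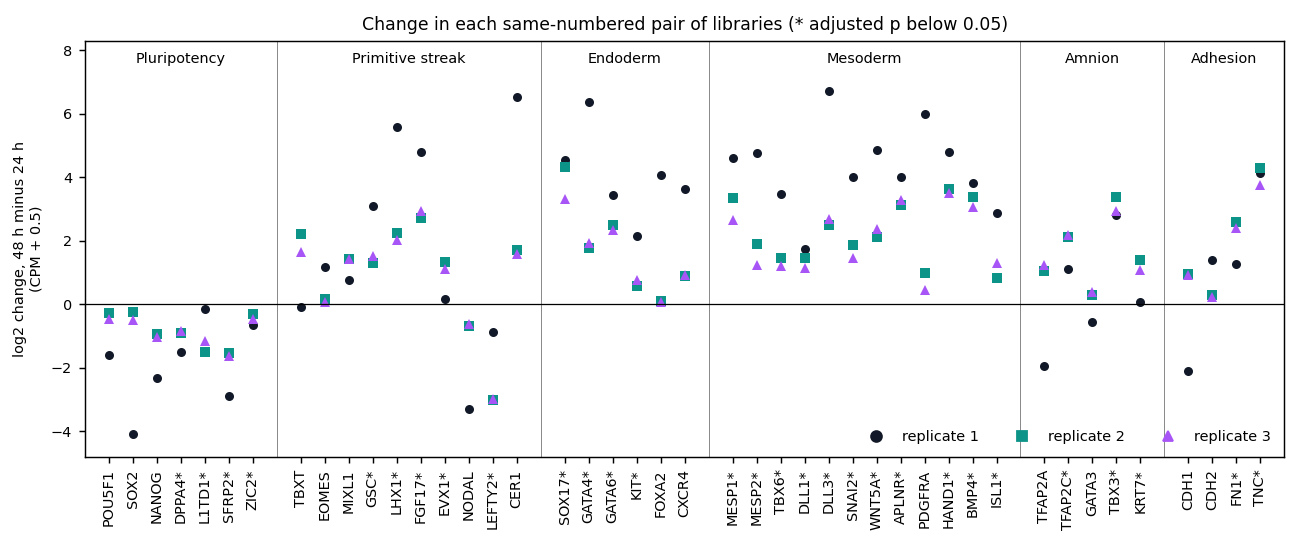
Change from 24 to 48 h in each same-numbered pair of libraries, as the difference of log2(CPM + 0.5), for genes of 6 groups; an asterisk marks an adjusted p below 0.05. SOX17, HAND1, BMP4 and TNC lie above 3 in all 3 pairs, while SOX2, PDGFRA and CER1 are set apart by replicate 1 and CDH1 and TFAP2A lie on both sides of 0.

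Of the 24 primed pluripotency genes reported here 4 fell, where 3.69% of all genes fell, and their median log2 change was -0.52. SFRP2, a secreted WNT inhibitor abundant in stem cells (chromosome 4, 153780592 to 153789120), stood at 143, 343 and 281 CPM at 48 h, against 1058, 1005 and 869 CPM at 24 h (log2 change -1.95 ± 0.22, adjusted p = 0.000614). It was also called without the block (adjusted p = 0.0102). DPPA4, a chromatin factor of pluripotent cells (chromosome 3, 109326141 to 109337572), was at 209, 405 and 410 CPM at 48 h, against 590, 756 and 727 CPM at 24 h. L1TD1, an RNA-binding protein of embryonic stem cells (chromosome 1, 62194831 to 62212328), was at 899, 374 and 446 CPM at 48 h, against 993, 1068 and 991 CPM at 24 h, so its fall lay mostly in replicates 2 and 3. ZIC2, a zinc finger factor, fell by 0.43 on the log2 scale. POU5F1, the factor OCT4, was not called (adjusted p = 0.169), at 291, 2680 and 1640 CPM at 48 h, against 881, 3279 and 2273 CPM at 24 h. NANOG stood at 7.98, 56.7 and 50.6 CPM at 48 h, against 41.6, 109 and 103 CPM at 24 h (adjusted p = 0.106). Both were lower at 48 h in the 3 pairs, as were 17 of the 24 genes and 5305 of all 21554 tested genes. SOX2 was at 3.51, 162 and 131 CPM at 48 h, against 67.4, 194 and 184 CPM at 24 h (adjusted p = 0.635). The change in replicate 1 was lower than that in replicates 2 and 3 by a log2 difference of 3.84. The calls of DPPA4 (adjusted p up to 0.132), L1TD1 (0.180) and ZIC2 (0.117) were lost without replicate 2 or 3 of BA 24 h, those of DPPA4 and L1TD1 also without replicate 2 of BA 48 h, those of L1TD1 and ZIC2 without replicate 3 of BA 48 h, and that of ZIC2 without replicate 1 of BA 48 h.

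The trophoblast and amnion list had 7 of 15 tested genes higher and 0 lower, where 6.32% of all genes rose and 3.69% fell. Its median log2 change was 1.32. The 7 higher genes were TFAP2C, KRT7, KRT18, ISL1, HAND1, TBX3 and WNT6. TBX3, a T-box factor induced by BMP in several tissues (chromosome 12, 114670254 to 114684164), stood at 445, 11.1 and 12.3 CPM at 48 h, against 63.4, 0.628 and 1.18 CPM at 24 h (log2 change 3.34 ± 0.28, adjusted p = 0.000143). TFAP2C, an AP-2 factor of trophoblast, amnion and germ cells (chromosome 20, 56629302 to 56639283), was at 26.1, 47.2 and 48.4 CPM at 48 h, against 11.9, 10.5 and 10.2 CPM at 24 h. WNT6 had 7, 19 and 13 counts at 48 h, against 0, 0 and 0 counts at 24 h. Of the markers of this lineage, GATA3 was at 131, 59.5 and 59.5 CPM at 48 h, against 193, 48.9 and 45.8 CPM at 24 h (adjusted p = 0.853). TFAP2A was at 26.4, 54.3 and 51.5 CPM at 48 h, against 103, 26.2 and 21.6 CPM at 24 h (adjusted p = 0.851), opposite in replicate 1 and replicates 2 and 3. KRT7 was at 0.192, 4.18 and 2.54 CPM at 48 h, against 0.155, 1.29 and 0.955 CPM at 24 h, and CGA, the hormone subunit of mature trophoblast, did not pass the filter on low counts. The calls of TFAP2C (adjusted p up to 0.111), KRT7 (0.112) and WNT6 (0.0866) were lost without replicate 2 or 3 of BA 24 h or replicate 2 of BA 48 h, those of KRT7 and WNT6 also without replicate 3 of BA 48 h, and that of KRT18 without replicate 2 of BA 24 h (0.0614).

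The counts for BMP, Activin and WNT genes stand beside shares of 6.32% higher and 3.69% lower over all tested genes. Of 17 tested BMP target and feedback genes 4 rose (BMP4, HAND1, TBX3 and DLX5) and 1 fell, SMAD7, the inhibitory SMAD. SMAD7 was at 124, 66.3 and 63.7 CPM at 48 h, against 166, 134 and 121 CPM at 24 h (log2 change -0.75 ± 0.19, adjusted p = 0.0336). ID1 and ID3, direct targets of BMP signalling, were not called. ID3 stood at 125, 483 and 437 CPM at 48 h, against 279, 747 and 666 CPM at 24 h (adjusted p = 0.0709), and ID1 at 68.3, 584 and 475 CPM at 48 h, against 186, 595 and 500 CPM at 24 h (adjusted p = 0.606). Among 15 Activin and Nodal genes 1 rose (GSC) and 2 fell (LEFTY2 and SMAD7). Among 21 WNT genes WNT5A, WNT11 and LGR5 rose, and the secreted inhibitors SFRP1 and SFRP2 fell. SFRP1 (chromosome 8, 41261958 to 41309497) was at 85.4, 44.8 and 44.4 CPM at 48 h, against 204, 157 and 152 CPM at 24 h (log2 change -1.58 ± 0.14, adjusted p = 0.000145), and had averaged 1098 ± 225 CPM at t0. The ligand gene WNT3 and the feedback target AXIN2 were not called (adjusted p = 0.195 and 0.667). LGR5, the R-spondin receptor and WNT target (chromosome 12, 71439770 to 71586310), stood at 194, 0.418 and 0.381 CPM at 48 h, against 1.29, 0.0628 and 0.0636 CPM at 24 h. It was called (adjusted p = 0.0157), but the rise in replicate 1 exceeded that in replicates 2 and 3 by 4.71 on the log2 scale.

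For the FGF and Notch lists, too, the shares over all tested genes were 6.32% higher and 3.69% lower. Among 19 FGF and ERK genes 2 rose (FGF17 and DUSP4) and 3 fell (DUSP6, ETV4 and IL17RD). DUSP6, the ERK phosphatase that ERK itself induces (chromosome 12, 89347232 to 89353271), was at 121, 30.2 and 36.0 CPM at 48 h, against 294, 260 and 255 CPM at 24 h (log2 change -2.26 ± 0.36, adjusted p = 0.00452). It was at 52.96 ± 20.2 CPM in E6 at 48 h and at 403 CPM in the single E6 library at 24 h. IL17RD, a membrane inhibitor of FGF signalling, was at 337, 147 and 165 CPM at 48 h, against 595, 291 and 318 CPM at 24 h. Notch genes gave 4 higher (DLL1, DLL3, HES4 and HES7) and 1 lower of 16. The gene that fell was HEY1, a Notch target (chromosome 8, 79764010 to 79767863), at 25.4, 3.31 and 3.24 CPM at 48 h, against 67.5, 25.9 and 20.05 CPM at 24 h (log2 change -2.23 ± 0.29, adjusted p = 0.00123). Of the signalling genes named, SMAD7 (adjusted p up to 0.134), DLX5 (0.0923), WNT11 (0.169) and ETV4 (0.0971) lost their call without replicate 2 or 3 of BA 24 h or of BA 48 h, ETV4 also without replicate 1 of BA 24 h. DUSP4 lost it without replicate 2 or 3 of BA 24 h (up to 0.0729), and LGR5 without replicate 1 of BA 24 h (0.202), replicate 1 of BA 48 h (0.116) or replicate 3 of BA 24 h (0.0516).

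**Figure D3:**
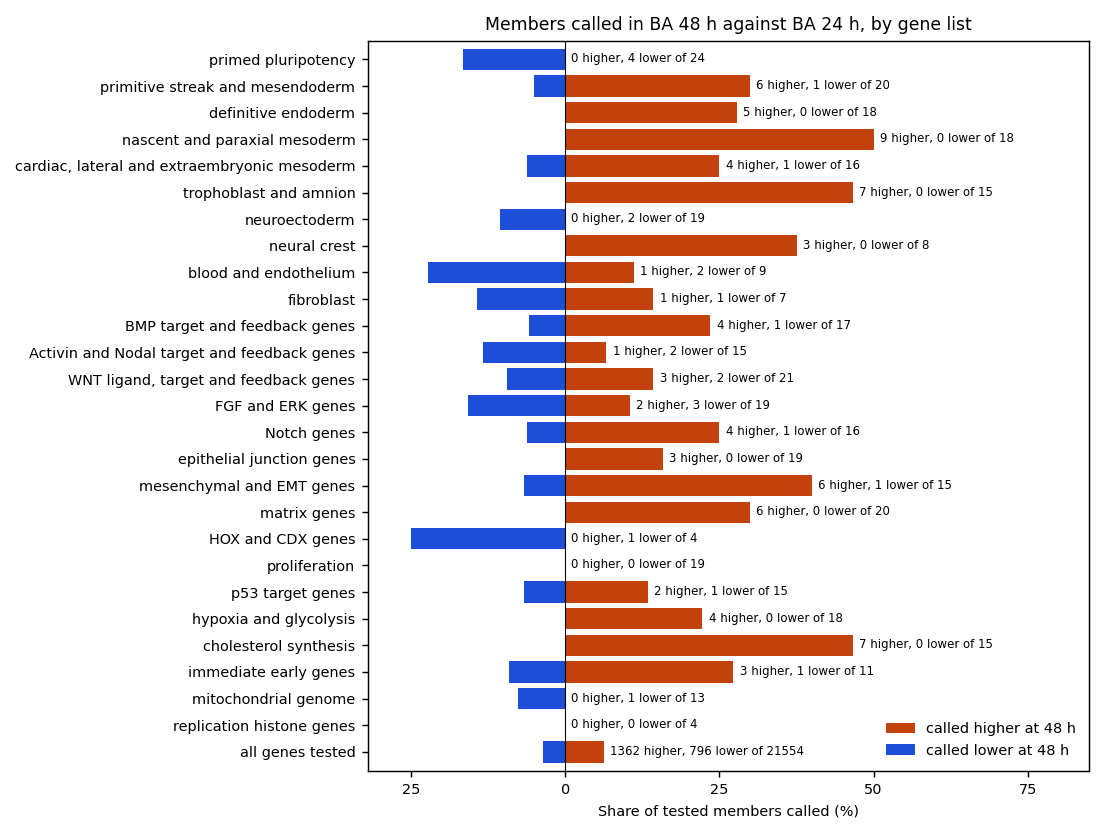
Share of the tested members of each gene list called higher (right of 0) or lower (left of 0) at 48 h against 24 h, in percent, with the counts beside each bar and all tested genes in the last row. Nascent and paraxial mesoderm had 9 of 18 members higher and 0 lower, while the 19 proliferation genes had none called.

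The next 3 lists are read against 6.32% of all tested genes higher and 3.69% lower. Of 15 mesenchymal and EMT genes 6 rose (CDH11, FN1, SNAI2, TWIST1, ITGA5 and TNC) and 1 fell (MMP2), with a median log2 change of 1.02. FN1, fibronectin (chromosome 2, 215360440 to 215436172), stood at 3570, 1846 and 1997 CPM at 48 h, against 1476, 305 and 380 CPM at 24 h. The groups did not overlap, and the log2 change was 2.07 ± 0.23 (adjusted p = 0.000545). Of 20 matrix genes 6 rose and 0 fell. COL5A1, a fibrillar collagen chain (chromosome 9, 134641774 to 134844843), was at 1604, 163 and 151 CPM at 48 h, against 87.4, 27.2 and 37.4 CPM at 24 h. COL4A1, of the basement membrane (chromosome 13, 110148963 to 110307233), was at 521, 226 and 237 CPM at 48 h, against 229, 89.4 and 113 CPM at 24 h. The epithelial list had 3 of 19 genes higher, all keratins of simple epithelia. KRT19 (chromosome 17, 41523617 to 41528308) was at 122, 531 and 425 CPM at 48 h, against 30.6, 116 and 107 CPM at 24 h, and had the lowest adjusted p of the keratins (log2 change 2.09 ± 0.13, adjusted p = 3e-05). KRT8 was at 392, 784 and 697 CPM at 48 h, against 179, 370 and 362 CPM at 24 h. CDH2, N-cadherin, was not called (adjusted p = 0.077), at 716, 132 and 156 CPM at 48 h, against 272, 108 and 132 CPM at 24 h. Nor was CDH1 (adjusted p = 0.836), whose replicates went opposite ways. The calls of CDH11 (adjusted p up to 0.102) and ITGA5 (0.156) were lost when any 1 of the libraries of BA 24 h was left out, those of COL5A1 (0.0645) and TWIST1 (0.151) without replicate 2 or 3 of BA 24 h, that of TWIST1 also without replicate 2 or 3 of BA 48 h, that of ITGA5 also without replicate 1 of BA 48 h, and that of MMP2 without replicate 2 of BA 48 h (0.0608). Per the annotation, KRT8 and KRT18, COL4A1 and COL4A2, and GATA6 and GATA6-AS1 overlap on opposite strands, and since no source used here says that counting kept the strand, their reads may be shared. KRT8, KRT18, LDHA and POU5F1 also have processed pseudogenes that can share reads.

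Metabolic and stress lists are set beside the same shares, 6.32% of all tested genes higher and 3.69% lower. The hypoxia and glycolysis list had 4 of 18 genes higher and 0 lower, with a median log2 change of 0.82. VEGFA, the vascular growth factor (chromosome 6, 43770184 to 43786487), was at 67.6, 197 and 176 CPM at 48 h, against 27.2, 79.7 and 85.8 CPM at 24 h (log2 change 1.24 ± 0.16, adjusted p = 0.0013). LDHA, lactate dehydrogenase, was at 652, 2878 and 3122 CPM at 48 h, against 336, 1350 and 1192 CPM at 24 h. The glucose transporter SLC2A3 and the mitophagy gene BNIP3 were the others. Cholesterol synthesis had 7 of 15 genes higher and 0 lower with a median log2 change of 0.35. The medians of its 3 pair changes were 0.037, 0.57 and 0.35. Its largest fold was that of INSIG1, an SREBP target of sterol feedback, at 295, 170 and 165 CPM at 48 h, against 238, 82.9 and 96.2 CPM at 24 h (log2 change 0.73 ± 0.13, adjusted p = 0.00734). Immediate early genes had 3 of 11 higher (JUN, ATF3 and NR4A1) and 1 lower (IER2), with medians of the pair changes of -0.11, 0.99 and 0.59. NR4A1, an orphan nuclear receptor (chromosome 12, 52022832 to 52059507), was at 31.0, 42.6 and 36.2 CPM at 48 h, against 11.9, 13.0 and 13.6 CPM at 24 h (log2 change 1.53 ± 0.18, adjusted p = 0.000783). Of 15 p53 target genes 2 rose (BBC3 and TP53INP1) and 1 fell (TP53I3), with medians of the pair changes of -0.23, 0.52 and 0.41. Of 19 proliferation genes 0 were called in either direction, where 10% of all genes were called. The share of counts from the mitochondrial genome was 1.61%, 2.496% and 2.75% at 48 h, against 1.91%, 4.14% and 4.99% at 24 h, and 1 of its 13 genes was called, MT-CO1, which was lower. The part of the mitochondrial share in the other results was not tested. The calls of SLC2A3 (adjusted p up to 0.158), LDHA (0.0937), BNIP3 (0.0768), JUN (0.151), TP53I3 (0.0726) and the cholesterol genes other than INSIG1 and IDI1 (up to 0.270) were lost without replicate 2 or 3 of BA 24 h or of BA 48 h, and those of SLC2A3 and LDHA also without replicate 1 of BA 24 h. That of IDI1 was lost without replicate 2 or 3 of BA 24 h or replicate 3 of BA 48 h (0.0718), that of TP53INP1 without these or replicate 1 of BA 48 h (0.145), and that of MT-CO1 when any 1 of the 6 was left out (0.170).

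Lists of other lineages are read against 6.32% of all tested genes higher and 3.69% lower. In the neural crest, blood and endothelium, and fibroblast lists the share called in either direction was above the 10% of all genes. Only 7 to 9 members of each were tested, so these counts are small. Neuroectoderm genes had 0 of 19 higher and 2 lower (HESX1 and ZIC5). PAX6, the neural factor, was at 0.511, 0.452 and 0.762 CPM at 48 h, against 0.465, 0.220 and 0.223 CPM at 24 h, and SOX1 had 0 counts in the 3 libraries at 48 h. In the blood and endothelium list 1 of 9 genes rose (RUNX1) and 2 fell (FLI1 and ERG), and TAL1 and PECAM1 stayed under 1 CPM in these 6 libraries. The summed level of that list was 63.7, 41.8 and 54.8 CPM at 48 h, against 44.4, 33.2 and 39.9 CPM at 24 h. The neural crest list had 3 of 8 genes higher (SNAI2, NGFR and TWIST1), and SOX10 did not pass the filter. The fibroblast list had 1 of 7 higher (COL1A2) and 1 lower (THY1), and LUM and DCN did not pass the filter. Of the HOX and CDX genes 4 of 18 were tested and 1 fell, HOXD1, at under 1 CPM in these libraries. The calls of HESX1 (adjusted p up to 0.201), ZIC5 (0.181), RUNX1 (0.179), FLI1 (0.135), NGFR (0.177) and HOXD1 (0.147) were each lost without replicate 2 or 3 of BA 24 h or of BA 48 h, those of HESX1, ZIC5, RUNX1 and HOXD1 also without replicate 1 of BA 48 h, and those of NGFR and HOXD1 also without replicate 1 of BA 24 h.

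The change from 24 to 48 h in replicate 1 was set against that in replicates 2 and 3 as an interaction. Replicate 1 is a single library at each time, so the spread comes from replicates 2 and 3 alone, which lie close together. A small p can therefore come from replicate 1 standing apart in a single library, and the counts describe these libraries. At an adjusted p below 0.05 were 4474 genes (20.8%), with 2241 higher and 2233 lower in replicate 1 relative to replicates 2 and 3, and for 2921 of them the 2 sets had opposite signs. Of the 2158 genes called over all replicates, 511 (23.7%) were among them. Among genes with a mean of at least 10 CPM in either group of either set, those with the smallest p were LZTS1, CYP26A1, DCLK1, WSCD1, PLXNA2 and CDH1. LZTS1, a leucine zipper protein (chromosome 8, 20246165 to 20303963), stood at 920, 18.6 and 18.3 CPM at 48 h, against 10.1, 22.97 and 23.2 CPM at 24 h, a difference of 6.88 on the log2 scale. CYP26A1, which degrades retinoic acid (chromosome 10, 93073475 to 93077890), was at 261, 24.5 and 22.9 CPM at 48 h, against 2.38, 13.6 and 13.2 CPM at 24 h. PLXNA2, a semaphorin receptor (chromosome 1, 208022242 to 208244320), was at 800, 18.8 and 18.8 CPM at 48 h, against 22.8, 5.90 and 6.56 CPM at 24 h. The change of these 3 genes was higher in replicate 1. DCLK1, a microtubule-associated kinase (chromosome 13, 35768652 to 36131306), went the other way, at 9.58, 420 and 482 CPM at 48 h, against 46.5, 78.0 and 87.0 CPM at 24 h. CDH1, E-cadherin (chromosome 16, 68737225 to 68835548), was at 41.3, 453 and 464 CPM at 48 h, against 178, 235 and 246 CPM at 24 h, lower in replicate 1 and higher in replicates 2 and 3 (log2 difference -2.98). Of the 19 epithelial genes 15 passed that threshold, as did 16 of 24 pluripotency genes, 16 of 18 endoderm genes and 4 of 15 trophoblast and amnion genes.

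**Figure D4:**
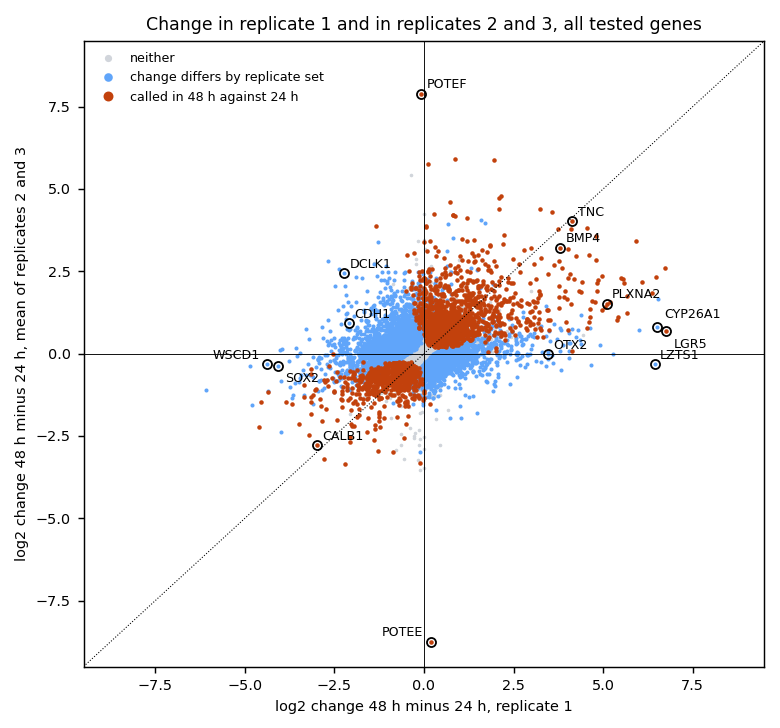
Change from 24 to 48 h in replicate 1 (horizontal) against the mean of replicates 2 and 3 (vertical), both as differences of log2(CPM + 0.5), for the 21554 tested genes; the dotted line marks equal change. Called genes lie mostly where both agree in sign, and 4474 genes pass the threshold for a difference between the 2 sets, LZTS1 (6.44 in replicate 1, -0.30 and -0.34 in replicates 2 and 3) among them.

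Single BA libraries at 30, 36 and 42 h give levels at times between the 2 groups. Set against replicate 1 at 24 h, the genes higher at 48 h had a median log2 change of 0.11 at 30 h, 0.27 at 36 h and 0.43 at 42 h, and 0.66 in replicate 1 at 48 h. The genes lower at 48 h had medians of -0.19, -0.49 and -0.63 at these times and -0.71 in replicate 1 at 48 h. Replicate 1 at 24 and 48 h entered the choice of these genes, so the end points are a description. SOX17 stood at 47.4, 97.1 and 80.4 CPM at 30, 36 and 42 h and HAND1 at 21.8, 69.9 and 78.6 CPM. BMP4 was at 12.2, 30.9 and 51.6 CPM, below its 216 CPM in replicate 1 at 48 h. TBXT was at 274, 314 and 346 CPM, above its levels in the 6 libraries at 48 and 24 h. IQSEC2 was at 87.7, 25.5 and 17.2 CPM, the last being the level of replicate 1 at 48 h. CDH1 was at 184, 127 and 22.1 CPM and DCLK1 at 73.3, 41.2 and 30.7 CPM. Each of these times has 1 library, and the labels do not tie it to a replicate, so these levels do not date the changes in the replicated groups.

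**Figure D5:**
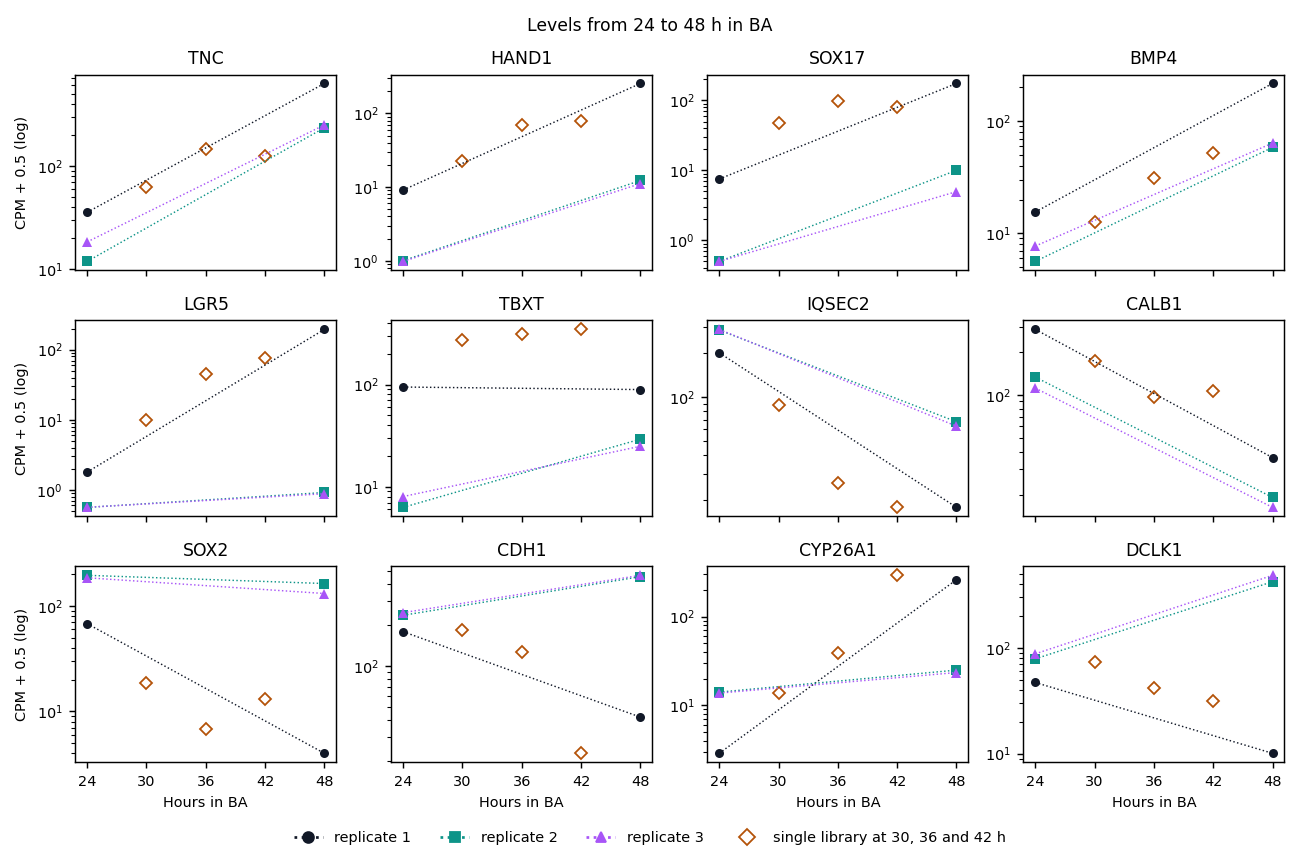
Level of 12 genes, as CPM plus 0.5 on a log axis, against hours in BA; filled symbols joined by dotted lines are same-numbered replicates at 24 and 48 h and open diamonds are single libraries at 30, 36 and 42 h. LGR5 reaches 194 CPM in replicate 1 at 48 h and stays under 1 CPM in replicates 2 and 3, and IQSEC2 is at 17.2 CPM in the single library at 42 h.

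In the control media the same 24 h interval can be read from 1 library at 24 h each, set against replicate 1 at 48 h. The 1362 genes higher at 48 h in BA had a median log2 change of 0.21 in E6 and 0.12 in E8, and 131 and 31 of them were over 2-fold higher there, against 453 in replicate 1 of BA. The 796 genes lower at 48 h in BA had medians of -0.25 in E6 and -0.04 in E8, and 74 and 6 of them were over 2-fold lower, against 273 in replicate 1 of BA. Over all tested genes, 1049 were over 2-fold higher and 1217 over 2-fold lower in replicate 1 of BA, 418 and 305 in E6, and 150 and 216 in E8. These values have no replicates and no test. The called genes were chosen by the BA libraries, replicate 1 among them. Their larger changes in BA than in E6 or E8 are thus partly fixed by that choice.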

How the data were processed

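Whole read counts of 58581 genes per library were deposited by the authors. The submitters' processing notes name hg38, featureCounts and DESeq2. Versions, and whether counting kept the strand, are not given in the sources used here. A second deposited table of the authors' own tests was not used.

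The counts were tested with edgeR 4.0.16 (limma 3.58.1, R 4.3.3) by the quasi-likelihood F-test after TMM normalization and filterByExpr, on the 15 libraries of the 5 groups with 3 replicates (BA 48 h, BA 24 h, E6 48 h, E8 48 h and t0), with group and replicate number as terms and 8 residual degrees of freedom. P-values were Benjamini-Hochberg adjusted over 21554 genes and called below 0.05. The interaction test fitted group by set (replicate 1, replicates 2 and 3) on the same libraries. CPM use TMM factors over all 35 libraries, and pair changes are differences of log2(CPM + 0.5). Where a library has 0 counts, the limit this sets covers counting error only. The block on replicate number was set by the definition of the comparison. Same-numbered libraries deviated together from their group means (r = 0.810, 0.713 and 0.723). Replicate 2 at 48 h with replicate 3 at 24 h (0.689) and the reverse (0.672) did so nearly as much. These values therefore cannot tell whether replicates 2 and 3 are rightly paired by number.

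Genes were named from 26 lists, or as the 10 per direction with the largest smallest pair change, the 5 with the largest fitted change, the 6 with the smallest interaction p and the 4 noncoding genes with the smallest p. The ranked genes had a mean of at least 10 CPM in either group, and those of the interaction in either group of either replicate set. A gene of the pluripotency list is not reported here, and the counts, median and plotted bar of that list leave it out. Members and lists were chosen with earlier results of these data known. Positions and gene types came from GENCODE 29 (81.2% of tested genes matched) and promoters from RefSeq GRCh38.p14. The gene listed as T is printed as TBXT. Tested on simulated data from 21503 genes, the main test recovered 92% of genes changed 2-fold and 100% of those changed 4-fold. For the difference between replicate sets (21539 genes) the recovered shares were 5% and 63%. These shares describe the simulated counts only, and recovery in the real libraries, with their spread between replicates, was not tested. DESeq2 1.42.0, limma-voom, other normalization, filters and samples were tried as alternatives.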

Additional observations from a re-analysis of the deposited data

How the results depend on the processing

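The number of called genes changed with the block, the libraries fitted and the replicates left out. With the block it was 2158 (1362 higher, 796 lower), and without the replicate block 98 (74 and 24). With the 6 libraries alone it was 538 with the block (411 and 127) and 0 without it in edgeR (1493 at an unadjusted p below 0.05). DESeq2 called 3239 (2024 and 1215 lower), limma-voom 1876, RLE scaling 2186 and no filter 1990. Leaving out 1 of the 6 libraries, or 1 replicate number in all groups, gave 4 (without replicate 2) to 8122 genes (without replicate 1), with 3 to 4321 higher and 1 to 3801 lower. In the fit without replicate 1, the spread rests on replicates 2 and 3. Among the called genes fitted in each of these settings (2052 with 6 libraries, 2119 without replicate 2, 2131 without replicate 3, 2146 without replicate 1 and 2158 in the others), 0 changed direction, except 1 without replicate 1 of BA 24 h. The count of 4474 genes for the difference between replicate 1 and replicates 2 and 3 stayed within 1.5 times under the alternatives run for it. Of 101 called genes named, 45 were called without any 1 of the 6 libraries and 11 without the block. With replicate 2 left out in all 5 groups, 97 of the 101 lost their call, and with replicate 3 left out 97 did. Genes that held without any 1 library, such as TNC, SOX17, HAND1 and BMP4, were among those lost in both fits. The adjusted p rose to 0.05 or above for 5 of the 101 in DESeq2 and 14 in limma-voom. Some genes that the main test did not call were called under an alternative. DESeq2 called CXCR4, PDGFRA, CER1, CDH2, ID3, NODAL and NANOG (adjusted p from 0.00217 to 0.0421). In limma-voom, CER1 (0.0295) and FOXA2 (0.0449) were called. The fit without replicate 1 called TBXT, MIXL1, SOX2 and CDH1, among others. Reversed directions were found among uncalled genes. Without the block, TFAP2A turned to -0.18 with 15 and with 6 libraries, and GATA3 to -0.17 and -0.16. With 1 library or replicate left out, the log2 change ran over -0.46 to 1.17 for TFAP2A, -0.11 to 0.35 for GATA3, -0.29 to 0.95 for CDH1, -0.68 to 0.063 for ID1 and -0.64 to 0.15 for AXIN2. The cause of these changes was not tested. Counting depth limits the genes under about 1 CPM, such as HES7, WNT6 and WNT11.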

Other observations

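Noncoding genes with at least 10 CPM in either group were among the called genes. D21S2088E (chromosome 21, 23361104 to 23384861 on GRCh38), annotated as a lincRNA, stood at 3.51, 1.08 and 1.81 CPM at 48 h, against 17.8, 18.8 and 19.5 CPM at 24 h, given in the order of replicates 1, 2 and 3. It had averaged 29.01 ± 3.996 CPM at t0 (SD, n = 3), and the log2 change was -3.27 ± 0.31 (SE, adjusted p = 0.000249). LINC01356 (chromosome 1, 112820170 to 112850643) was at 11.8, 108 and 108 CPM at 48 h, against 2.38, 3.39 and 3.82 CPM at 24 h. Its rise was larger in replicates 2 and 3 than in replicate 1, by 2.54 on the log2 scale. GATA6-AS1 (chromosome 18, 22164886 to 22169878), antisense to GATA6 and overlapping it, was at 48.9, 2.12 and 2.64 CPM at 48 h, against 1.09, 0.0628 and 0.0636 CPM at 24 h. SNHG18, a host gene of a small nucleolar RNA (chromosome 5, 9546200 to 9550609), was at 10.8, 11.4 and 10.96 CPM at 48 h, against 1.40, 5.05 and 4.93 CPM at 24 h, and its call was lost without replicate 3 of BA 24 h (adjusted p = 0.0527). CTD-2311M21.2, whose symbol has no entry in the annotation used here, was at 18.2, 28.7 and 31.7 CPM at 48 h, against 1.499, 0.722 and 1.27 CPM at 24 h (log2 change 4.47 ± 0.44, adjusted p = 0.000311), and it was called without any 1 of the 6 libraries and without the block (0.0136).

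Among called genes with at least 10 CPM in either group, the largest fitted rise and fall were those of POTEF and POTEE, which are near-identical copies with uncertain values. In replicates 2 and 3, POTEF held 222 and 217 CPM at 48 h, against 0.282 and 0.605 CPM at 24 h, and POTEE held 0.0348 and 0.0953 CPM at 48 h, against 242 and 241 CPM at 24 h. The sum of the 2 genes was 0.639, 222 and 217 CPM at 48 h, against 0.620, 242 and 242 CPM at 24 h. How reads shared by the copies were assigned was not tested. RP11-29H23.6, also among the largest fitted falls, rested on 1 library, with 39.3 CPM in replicate 2 at 24 h and under 1 CPM in the other 5.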
